A study of Gallus gallus with 2 samples.

Results

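The genes described here encode the intermediate filament proteins of neurons and of neural progenitor cells: the neurofilament subunits *NEFM* (medium) and *NEFL* (light), the related neuronal protein *INA* (alpha-internexin), the progenitor filaments *VIM* (vimentin) and *NES* (nestin), and the glial filament *GFAP*. They were chosen by name, as every array probe whose gene symbol in the deposited expression report was one of these 6, ignoring case. This gave 17 of the 43603 probes on the array, for 4 of the 6 genes: 4 probes for *NEFM*, 5 for *NEFL*, 4 for *VIM* and 4 for *NES*. No probe carried the symbol *INA* or *GFAP*. RNA came from the prosencephalic domain, the rostral part of the head with the anterior forebrain, optic vesicles and the tissue over them, of chick embryos placed in roller culture at Hamburger and Hamilton stage (HH)10. Embryos were cultured for 16 hours, to about HH13, with 40 µM DAPT, a γ-secretase inhibitor that blocks the cleavage by which Notch receptors are activated, or with its solvent DMSO. Eggs were of the Isa Brown strain, both groups were cultured in L15 medium with chick serum and gentamycin, and the groups differed in the agent added, with no transgene or engineered allele named. Each of 4 arrays per group held RNA pooled from 5 embryos of the same culture, so that the tests below measure the spread between such pools.

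Intermediate filaments are rope-like polymers of the cytoskeleton, and the proteins from which they are made change as a neural cell matures. Dividing neuroepithelial cells build their filaments from vimentin together with nestin, which does not form filaments by itself. Newly born neurons stop dividing and begin to make alpha-internexin and the light and medium neurofilament subunits, which fill the growing axon, while the heavy subunit *NEFH* is known as a late addition in mature axons. *GFAP* is best known as the filament of astrocytes, which arise long after the stage studied here. Notch signalling keeps neural cells in the progenitor state, so the comparison asked whether the filaments of neurons and those of progenitors were changed when it was blocked.

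Values are log2 of the background-corrected spot signal, with the median of each array set to 0, and a probe entered the test if its spots were well above background throughout at least 1 group. All 17 probes were well above background on all 8 arrays and none was saturated on any of them, with signals from 220.4 to 69266 intensity units before normalization. Arrays 1 and 2 of each group lay on slide 1 and arrays 3 and 4 on slide 2, which was scanned separately, and the medians of the arrays before normalization were 177.6 to 353.8. Of 31504 probes tested with limma (two-sided, Benjamini-Hochberg adjustment over all of them), 0.0952% had a higher and 0.0381% a lower signal with DAPT at an adjusted p under 0.05. Adding slide to the fit as a block gave 0.324% higher and 0.121% lower, and a replicate block made of the array number gave 0.384% higher.

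*NEFM* was about 4-fold higher after DAPT, and *NEFL* about 3-fold higher in 4 of its 5 probes. *VIM* and *NES* gave no difference that passed the test. Of the 9 neurofilament probes 4 were called higher without a block, 3 of *NEFM* and 1 of *NEFL*. With slide as a block and with the array number as a replicate block, 8 were called higher. Of the 8 probes of the progenitor filaments 0 were called in either direction in these 3 limma fits, and 0 had an unadjusted p under 0.05 without a block. The median log2 change was 1.62 over the 9 neurofilament probes and 0.03 over the 8 *VIM* and *NES* probes, beside -0.01 over all tested probes. All 4 DAPT arrays stood above all 4 DMSO arrays for 8 of the 9 neurofilament probes and for 0 of the 8 progenitor filament probes, against 0.803% of all tested probes. The reverse arrangement, seen in 0.905% of tested probes, occurred for 0 of the 17. The probes of a gene were read on the same arrays, so these are not counts of independent observations. *NEFM* is among the genes that the study itself selected as raised on these same arrays, so its direction is not independent evidence. The values of *NEFL* come from the same arrays, so its direction is not independent evidence either. In RNA from whole tissue, more cells of a type and more RNA per cell cannot be told apart.

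**Figure D1:**
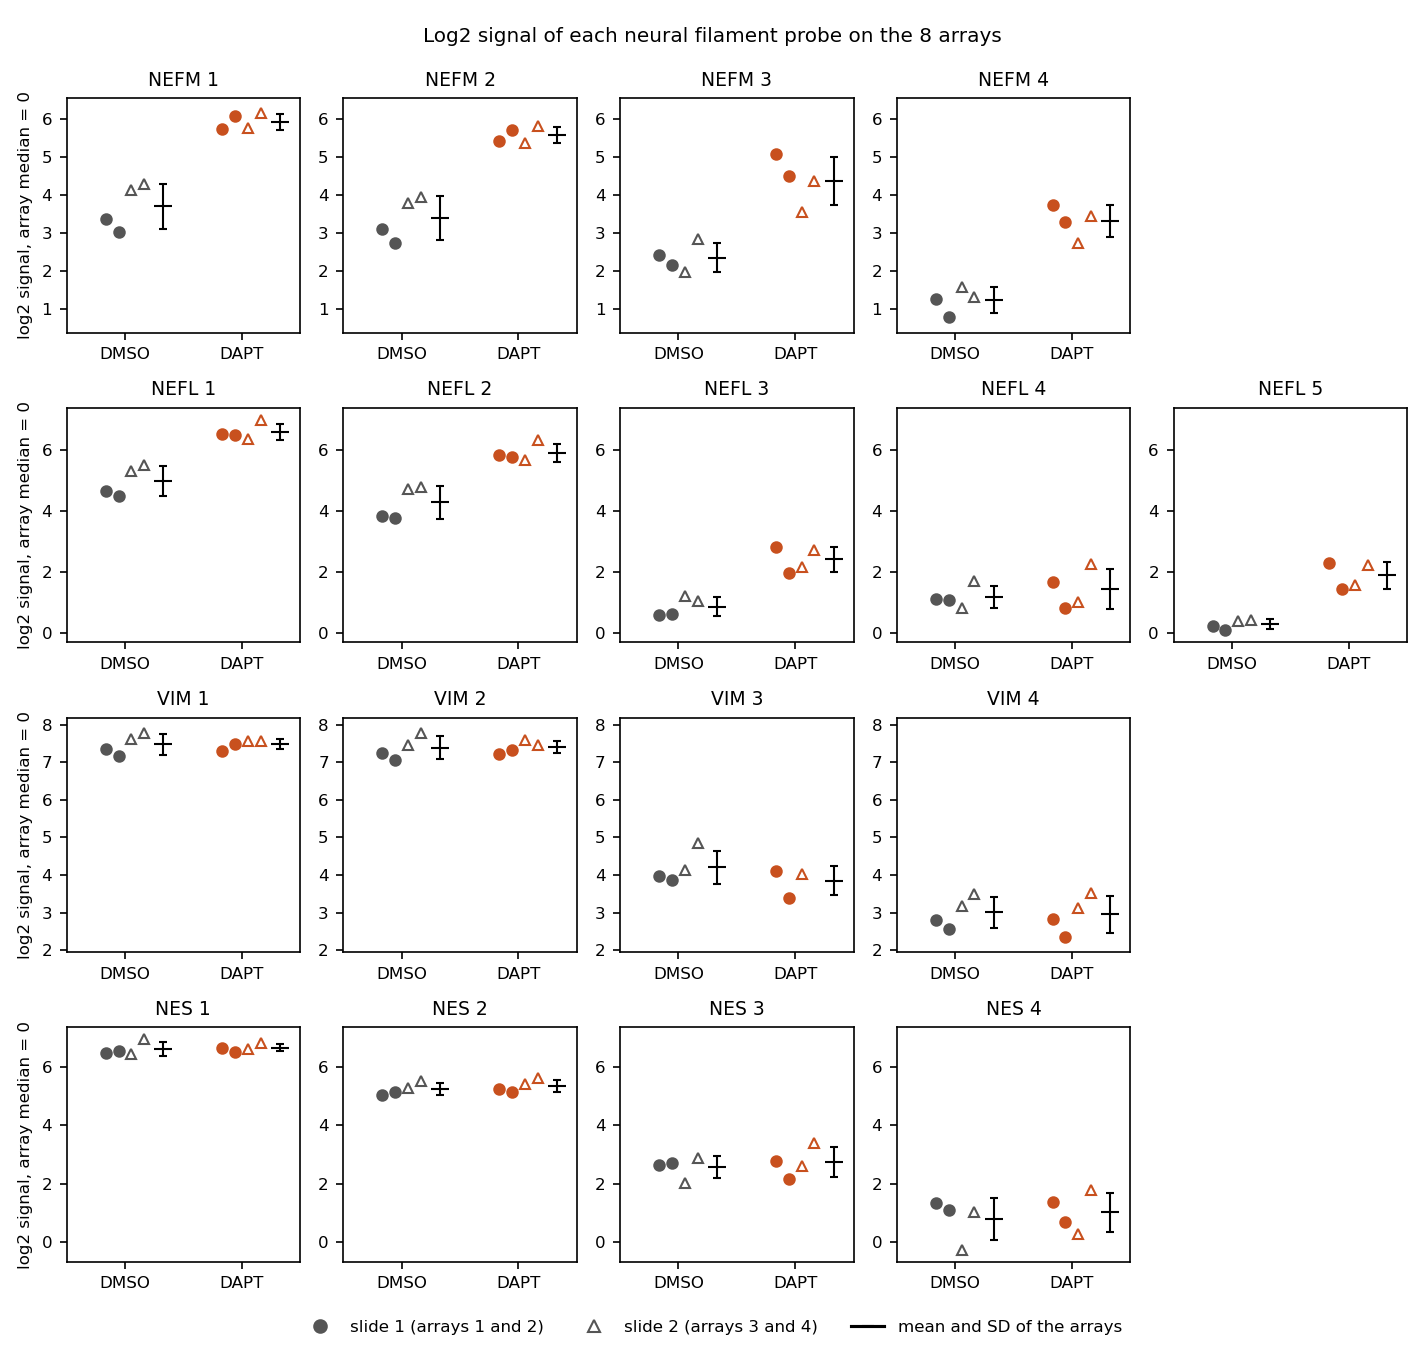
Log2 signal (vertical axis, median of each array = 0) of the 17 filament probes on 8 arrays, with the DMSO arrays in grey and the DAPT arrays in orange, arrays of slide 1 as filled circles and arrays of slide 2 as open triangles. Bars give the mean and SD of the 4 arrays of a group, or of 3 for VIM 3 with DAPT, and the groups are apart for every NEFM probe and for every NEFL probe except NEFL 4.

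*NEFM* encodes the medium neurofilament subunit, whose long tail forms side arms between neighbouring filaments of an axon. Its brightest probe (A_87_P008972, NEFM 1) had log2 signals of 3.38, 3.04, 4.13 and 4.28 with DMSO and of 5.72, 6.07, 5.77 and 6.15 with DAPT, in the order of arrays 1 to 4. The lowest DAPT array thus stood above the highest DMSO array, and the DMSO arrays of slide 2 were higher than those of slide 1, whereas the DAPT arrays of both slides lay close together. The means were 3.71 ± 0.60 with DMSO and 5.93 ± 0.21 with DAPT (SD, n = 4 arrays each), a log2 change of 2.22 (standard error 0.29), or 4.66-fold, with a limma adjusted p of 0.0190. With slide as a block the standard error was 0.21 and the adjusted p 0.000741, and with the array number as a replicate block the adjusted p was 0.000734.

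The second probe (A_87_P140363, NEFM 2) read 3.11, 2.74, 3.81 and 3.96 with DMSO and 5.43, 5.71, 5.38 and 5.81 with DAPT. It had the same order of arrays within the DMSO group as NEFM 1, and its groups did not overlap. Its change was 2.18 (standard error 0.28, limma adjusted p = 0.0190), or 4.53-fold. NEFM 3 (A_87_P054981) read 2.42, 2.16, 1.99 and 2.86 with DMSO and 5.09, 4.50, 3.55 and 4.36 with DAPT, a change of 2.02 (standard error 0.32). Its lowest array of each group was array 3, the groups did not overlap, and its limma adjusted p was 0.0594 without a block, 0.00831 with slide as a block and 0.00105 with the array number as a replicate block. NEFM 4 (A_87_P287713) read 1.28, 0.79, 1.58 and 1.33 with DMSO and 3.75, 3.30, 2.74 and 3.45 with DAPT. The groups were again apart, by a log2 change of 2.07 (standard error 0.25, limma adjusted p = 0.0180). The 4 probes therefore gave changes from 2.02 to 2.22, all read from the same RNA pools. For each of the 4 the exact permutation test over the 70 labelled splits of the arrays gave p = 0.0286, the smallest that 4 arrays against 4 allow. This test ignores the slide, and the 36 splits that stay within slides could not go below 0.0556.

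*NEFL* encodes the light subunit, the core on which the medium and heavy subunits assemble. NEFL 1 (A_87_P061261), its brightest probe, read 4.67, 4.51, 5.33 and 5.53 with DMSO and 6.55, 6.51, 6.37 and 7.0 with DAPT. As for NEFM 1, DMSO arrays 3 and 4 were higher than DMSO arrays 1 and 2, and every DAPT array was above them all. The means of 5.01 ± 0.50 and 6.61 ± 0.27 (SD, n = 4 each) differed by 1.60 (standard error 0.26), or 3.03-fold. The limma adjusted p was 0.0700 without a block, 0.00349 with slide as a block and 0.00182 with the array number as a replicate block.

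NEFL 2 (A_87_P004179) read 3.83, 3.80, 4.74 and 4.80 with DMSO and 5.84, 5.79, 5.69 and 6.33 with DAPT, a change of 1.62 (standard error 0.28). NEFL 3 (A_87_P140893) read 0.59, 0.62, 1.23 and 1.04 with DMSO and 2.82, 1.99, 2.16 and 2.74 with DAPT, a change of 1.56 (standard error 0.25). Neither probe had overlapping groups. Their limma adjusted p was 0.0926 and 0.0650 in the main fit without a block, and 0.00350 and 0.00764 with slide as a block. NEFL 5 (A_87_P217728) read 0.24, 0.10, 0.42 and 0.44 with DMSO and 2.32, 1.45, 1.60 and 2.25 with DAPT. Its DMSO arrays were the closest together of the 9 neurofilament probes (SD 0.16). It was the 1 *NEFL* probe called in the main fit without a block, with a change of 1.61 (standard error 0.23, limma adjusted p = 0.0366). These 4 probes gave changes from 1.56 to 1.62, and each had p = 0.0286 in the exact permutation test.

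The remaining *NEFL* probe did not follow the others. NEFL 4 (A_87_P223328) read 1.14, 1.1, 0.83 and 1.70 with DMSO and 1.69, 0.82, 1.02 and 2.26 with DAPT, so that the groups overlapped throughout. Its change was 0.26 with a 95% interval from -0.47 to 0.98, which does not reach the change of any other *NEFL* probe (limma adjusted p = 1.0; exact permutation p = 0.657). The expression report gives this probe the same accession as NEFL 3 and NEFL 5, the array files give it the same transcript as NEFL 1, NEFL 3 and NEFL 5, and all 8 of its spots were well above background. On both DMSO and DAPT arrays its highest value was on array 4. Its sequence, and hence what it hybridized to, was not analysed here.

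**Figure D2:**
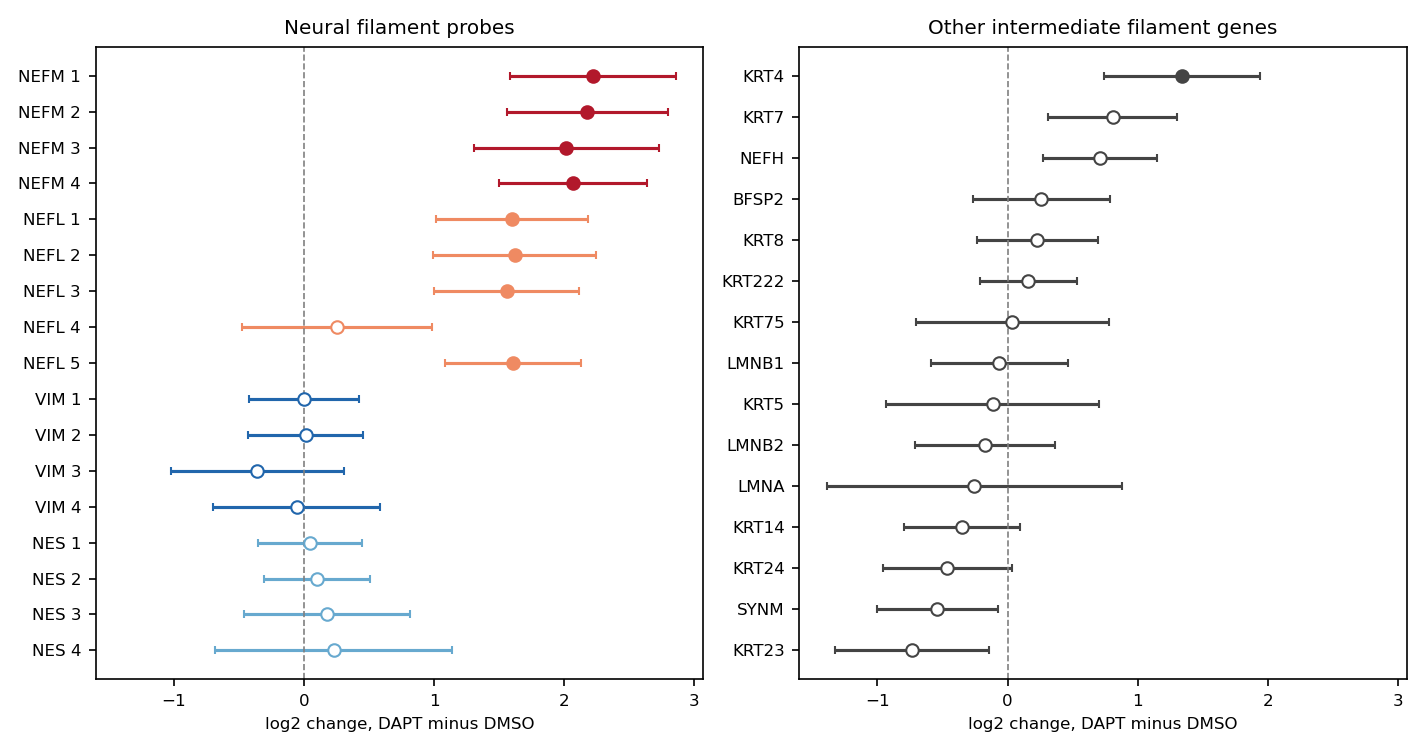
Log2 change (DAPT minus DMSO, horizontal axis) of the 17 filament probes (left) and of the brightest probe of 15 other intermediate filament genes (right), with 95% intervals from limma without a block. Filled points had an adjusted p under 0.05 with slide as a block: 8 of 9 NEFM and NEFL probes, 0 of 8 VIM and NES probes and KRT4 among the other genes.

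Vimentin is the filament protein of neuroepithelial and mesenchymal cells. Its brightest probe (A_87_P101406, VIM 1) read 7.35, 7.16, 7.61 and 7.79 with DMSO and 7.29, 7.49, 7.56 and 7.57 with DAPT. All DAPT arrays lay within the range of the DMSO arrays, and the means were 7.48 ± 0.28 and 7.48 ± 0.13 (SD, n = 4 each). The change was 0.0020 (standard error 0.19), with a 95% interval from -0.42 to 0.42, or from -0.31 to 0.31 with slide as a block. VIM 2 (A_87_P058361) gave 0.01 (95% interval -0.43 to 0.46) and VIM 4 (A_87_P294348) gave -0.06 (95% interval -0.70 to 0.58). For VIM 3 (A_87_P101411) the spot on DAPT array 4 was marked as non-uniform and left out, which left n = 3 there. It read 3.97, 3.86, 4.14 and 4.85 with DMSO and 4.11, 3.40 and 4.04 with DAPT, a change of -0.36 (standard error 0.29, 95% interval -1.02 to 0.31), or -0.56 with that spot kept. The value of VIM 3 ran from -0.49 to -0.13 (without DAPT array 2) when single arrays were omitted, and was -0.14 without DMSO array 4, -0.14 with the array number as a replicate block and -1.08 under normexp background correction. The limma adjusted p of the 4 *VIM* probes was 1.0, and their exact permutation p was 0.457 to 1.0.

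Nestin, first described in chick as transitin, copolymerizes with vimentin in dividing neural cells. NES 1 (A_87_P058496), the brightest probe, read 6.46, 6.54, 6.45 and 6.96 with DMSO and 6.66, 6.51, 6.63 and 6.80 with DAPT. The highest and the lowest of the 8 values were both DMSO arrays, and the change was 0.05 (standard error 0.18, 95% interval -0.35 to 0.45). NES 2 (A_87_P131108), NES 3 (A_87_P060811) and NES 4 (A_87_P060816) gave 0.10, 0.18 and 0.23, with standard errors of 0.18, 0.29 and 0.41. NES 4 was the most scattered of the 17 probes, with 1.34, 1.12, -0.26 and 1.03 with DMSO and 1.37, 0.70, 0.29 and 1.79 with DAPT, and its low values were array 3 of each group. The limma adjusted p was 1.0 for all 4 *NES* probes, and the exact permutation p was 0.514 to 0.714. A p above the threshold does not show that a level was equal in both groups. The 95% intervals of VIM 1 and NES 1 leave room for a log2 change of up to 0.42 and 0.45. Those of NES 2, NES 3 and NES 4 were wider, at -0.31 to 0.51, -0.46 to 0.82 and -0.68 to 1.14.

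Setting neuronal against progenitor filaments within each array removes the scaling of the arrays. Relative to its mean on the DMSO arrays, the log2 ratio of NEFM 1 to VIM 1 was -0.20, -0.35, 0.29 and 0.26 with DMSO and 2.20, 2.35, 1.98 and 2.35 with DAPT. The groups were apart, with a change of the ratio of 2.22, or 4.65-fold, and of 2.17 when NES 1 took the place of VIM 1. For NEFL 1 the ratio to VIM 1 changed by 1.60 and the ratio to NES 1 by 1.55, again without overlap. The ratio of NEFM 1 to NEFL 1 was -0.17 to 0.10 with DMSO and 0.45 to 0.86 with DAPT, so that on every DAPT array *NEFM* had risen by more than *NEFL*, by 0.62 on average. The ratio of VIM 1 to NES 1 changed by -0.04, and its groups overlapped. These ratios are given as descriptions, without a test.

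The neurofilament response was present on each slide. Its estimates were larger on slide 1, from 2 arrays per group on each slide, but the difference did not pass the test with adjustment. Over the 4 *NEFM* probes the change was 2.49 to 2.69 on slide 1 and 1.54 to 1.75 on slide 2. For the 4 *NEFL* probes other than NEFL 4 it was 1.72 to 2.0 on slide 1 and 1.24 to 1.49 on slide 2. The difference in response between slides, tested with an interaction term of limma, had an unadjusted p under 0.05 for 3 of the 17 probes, NEFM 1, NEFM 2 and NEFL 2, and an adjusted p of 1.0 for all 17. Over all 31498 probes that could be fitted, 733 had an unadjusted p under 0.05 and 0 an adjusted one. *VIM* and *NES* changed by -0.20 to 0.14 on slide 1 and by -0.45 to 0.66 on slide 2. Slide 2 had a higher limit of saturation (779340 against 65527 units), but no filament probe was saturated on either slide. Levels of tissue markers also differed between slides. The summed level of 5 blood markers, the log2 of their summed signals, was 6.96 to 8.14 on slide 1 and 2.11 to 4.53 on slide 2, and that of 4 muscle markers was 3.97 to 4.38 and 1.44 to 1.97. The summed level of 7 forebrain markers was 6.77 to 6.92 on slide 1 and 7.35 to 7.48 on slide 2. Bright genes weigh most in such a sum, and the genes of this list did not shift together. *OTX2* was at 5.78 to 5.92 on slide 1 and 6.56 to 6.80 on slide 2. *NKX2-1* ran the other way, at 1.27 to 1.64 on slide 1 and 0.22 to 1.01 on slide 2. The part of the scans and of the tissue content in the difference between slides was not tested.

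**Figure D3:**
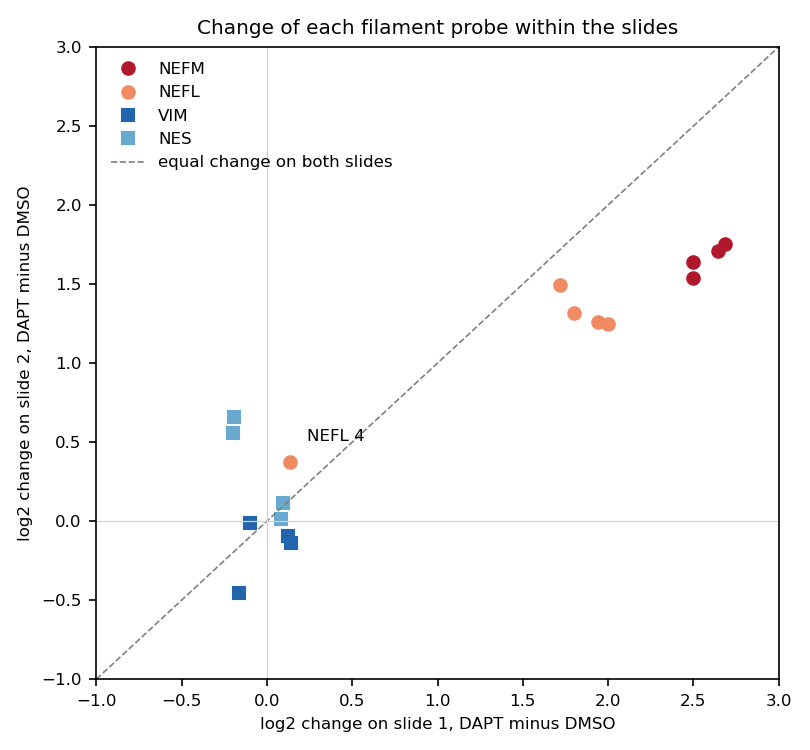
Log2 change of each of the 17 filament probes on slide 1 (horizontal axis) and slide 2 (vertical axis), each from 2 DAPT and 2 DMSO arrays, with circles for NEFM and NEFL and squares for VIM and NES. Apart from NEFL 4, the NEFM and NEFL probes lie at 1.72 to 2.69 on slide 1 and 1.24 to 1.75 on slide 2, below the dashed line of equal change, and the VIM and NES probes lie around 0.

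Without a block the calls depended on single arrays, although the change of the *NEFM* probes and of the 4 raised *NEFL* probes stayed positive. The blocked fits were not repeated with arrays left out. When single arrays were omitted, the change of the 4 *NEFM* probes stayed between 1.78 and 2.41 and that of the 4 raised *NEFL* probes between 1.43 and 1.79. Without DMSO array 1, DAPT array 1, DAPT array 2 or DAPT array 4, 0 of the 17 probes were called; without DMSO array 4 or DAPT array 3, 2 were; without DMSO array 2 or 3, 3 were. The adjusted p of NEFM 1 was 0.0267 to 0.0959 over these fits, and that of NEFL 5 was 0.0573 to 0.163. With normexp background correction 0 of the 17 were called, and the *NEFM* probes changed by 1.3 to 1.52 and the 4 *NEFL* probes by 0.89 to 1.02, in a fit where the median of all probes moved to -0.32.

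Among all genes with a symbol, *NEFL* was the one whose brightest probe followed NEFM 1 most closely. After the mean of each slide was removed, the Pearson correlation of NEFL 1 with NEFM 1 over the 8 arrays was 0.990, the highest of 10885 genes. The next were *MYO1H*, an unconventional myosin (0.985), *CBLN3*, of the cerebellin family (0.981), *NEUROG1*, a proneural transcription factor (0.980), and *ST18*, a zinc finger transcription factor (0.973). These genes share the arrays and the contrast of DAPT with DMSO, and their own changes ran from 0.66 for *CBLN3* to 3.15 for *NEUROG1*. That contrast was left in, so the order is not evidence apart from the changes themselves. *MYO1H* and *CBLN3* were dim, with means of -1.94 and -1.58 with DMSO. Their limma adjusted p was 0.479 and 0.387 without a block, and 0.0189 and 0.0652 with slide as a block. *VIM* and *NES* came 2995th and 3133rd in that order, with correlations of 0.224 and 0.210. For VIM 1 the closest were *IRAK1BP1*, *OAT*, *DZIP1L*, *LAMP2* and *COPS7B*, at 0.968 to 0.953, all with changes between -0.05 and 0.08, while *NES* had 0.279 and *NEFL* 0.185. These values are descriptions over 8 arrays, with no test.

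*NEFL* and *NEFM* are next to each other in the gene order of the GRCg7b assembly, with no annotated gene between them. Of the 3 genes listed on either outer side of the pair, those with a tested probe were *DOCK5* and *GNRH1*, beyond *NEFL*. *DOCK5*, which encodes a guanine nucleotide exchange factor, changed by 0.19 (standard error 0.19), and *GNRH1*, a neuropeptide gene, by 0.72 (standard error 0.32), both with a limma adjusted p of 1.0. Coordinates are left out, since the assembly of the table is not the one behind the array. Promoter and protein sequences of the filament genes were not analysed here.

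The other members of the filament family were read from a list of 27 genes, of which 18 had a probe and 15 a tested one, each represented by its brightest tested probe. Their median log2 change was -0.06, with 7 positive and 8 negative, and 0 passed the test in either direction without a block. An unadjusted limma p under 0.05 was found for 5 of them. The share of all tested probes under that unadjusted p was not computed, so nothing is read from the 5. *NEFH*, the heavy neurofilament subunit, was matched through a transcript accession only. It was dim, at -2.29, -2.71, -2.40 and -1.97 with DMSO and -1.66, -1.80, -1.58 and -1.48 with DAPT. All its DAPT arrays were above all its DMSO arrays, and its change was 0.71 (standard error 0.20), at a limma adjusted p of 0.847 without a block, 0.138 with slide as a block and 0.0652 with the array number as a replicate block. *GFAP* was matched to a probe in the same way, outside the rule by symbol, but was well above background on only 6 of 8 arrays and was not tested, with log2 values from -3.38 to -2.22. *INA* and *PRPH* (peripherin, the filament of peripheral neurons) had no probe by symbol or by accession.

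Keratins are the filaments of epithelia. A probe that the report names *KRT4* read -1.95, -2.19, -2.10 and -1.27 with DMSO and -0.99, -0.37, -0.73 and -0.06 with DAPT. Its groups did not overlap, and its change of 1.34 (standard error 0.27) had a limma adjusted p of 0.210 without a block, 0.0290 with slide as a block and 0.00355 with the array number as a replicate block. It was the 1 gene of the list called with either block, and it is named so by the report only, since the reference table lists its accession under a numbered locus. *KRT7* changed by 0.81 (standard error 0.22) with groups apart and a limma adjusted p of 0.847. The other keratins were at -0.73 for *KRT23*, -0.46 for *KRT24* (keratin 19 in the report), -0.35 for *KRT14*, -0.11 for *KRT5*, 0.04 for *KRT75*, 0.16 for *KRT222* and 0.23 for *KRT8*, all with a limma adjusted p of 1.0.

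Nuclear lamins line the inner nuclear envelope of every cell. *LMNB1*, *LMNB2* and *LMNA* changed by -0.06, -0.17 and -0.25 (limma adjusted p = 1.0 each), with *LMNB2* missing a marked spot on DAPT array 4. *SYNM* (synemin), a partner of vimentin in its filaments, was at 1.41, 1.29, 1.93 and 2.05 with DMSO and 1.0, 1.15, 1.17 and 1.20 with DAPT. Its DAPT values all lay under its DMSO values, but the change of -0.54 (standard error 0.21) did not pass the test (limma adjusted p = 1.0, and 0.347 with slide as a block). *BFSP2*, a filament protein of the lens, changed by 0.26 (limma adjusted p = 1.0).

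**Figure D4:**
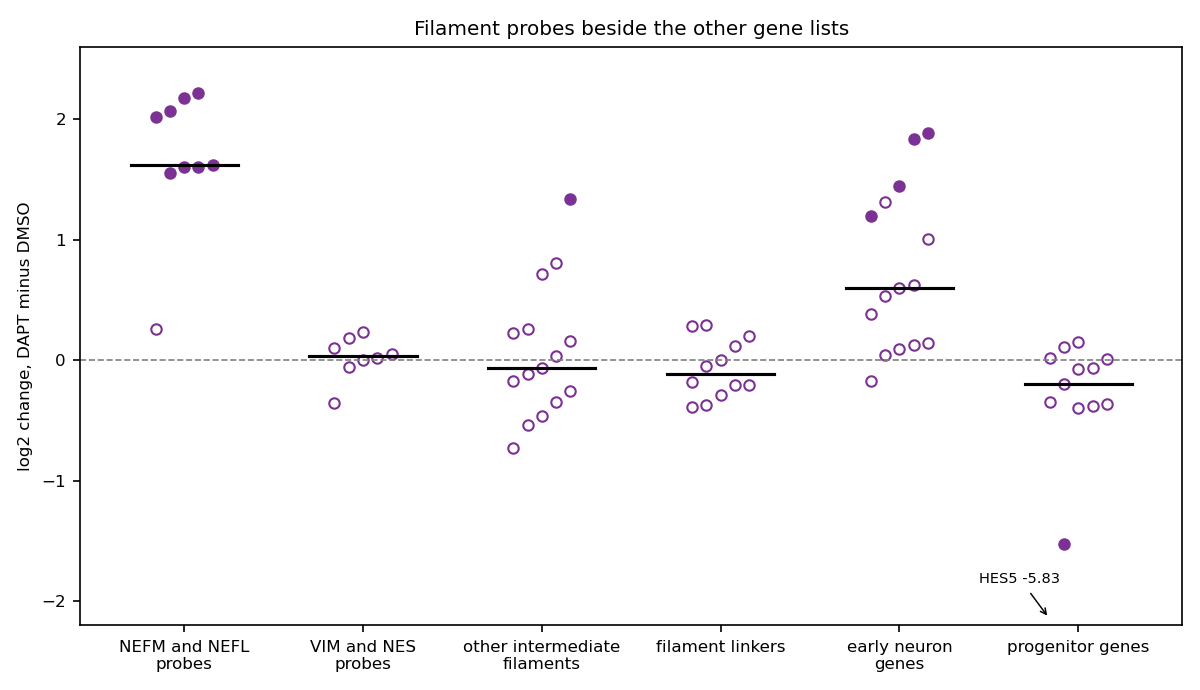
Log2 change (DAPT minus DMSO, vertical axis) of the 9 NEFM and NEFL probes, the 8 VIM and NES probes and the tested genes of 4 lists, with horizontal bars at the medians (1.62, 0.03, -0.06, -0.12, 0.60 and -0.20 from left to right). Filled points had a limma adjusted p under 0.05 with slide as a block, and HES5 at -5.83 lies outside the axis.

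Proteins that link filaments to the rest of the cell, carry them along the axon or turn them over were read from a list of 18 genes, among them spectraplakins, kinesin heavy chains and the kinase *CDK5*. Of these, 12 were tested and 0 passed in either direction with or without slide as a block (0 at an unadjusted limma p under 0.05), with a median change of -0.12 and a range from -0.39 to 0.29. Of 15 tested early neuron genes, 14 had positive changes, with a median of 0.60, beside -0.01 over all tested probes. Among the 14, *MAP1B*, *SYT1*, *MAPT* and *CRMP1* were near 0, at 0.04, 0.10, 0.13 and 0.14. Without a block 2 genes of the list were called higher, *TAGLN3* at 1.88 (limma adjusted p = 0.0227) and *NHLH1* at 1.83 (limma adjusted p = 0.0396). With slide as a block *ISL1* at 1.44 and *ELAVL4* at 1.19 were called too. Of all tested probes 0.0952% were called higher without a block and 0.324% with slide as a block. *STMN2*, which encodes a tubulin-binding protein of growing axons, was called with the array number as a replicate block alone, at 1.32 (limma adjusted p = 0.0152, and 0.544 without a block and 0.145 with slide as a block). The lowest change in this list was -0.17 for *TUBB3*, the neuronal tubulin, and the highest was that of *TAGLN3*, so that the 4 *NEFM* probes lay above the list and the *NEFL* probes within it. In this list *TAGLN3*, *NHLH1*, *STMN2*, *GAP43* and *CNTN2* are among the genes that the study itself reported as raised on these same arrays. Their direction is therefore not independent evidence. Of 13 tested progenitor genes, the 2 called lower were the Notch targets *HES5* (limma adjusted p = 0.00355) and *HEY1* at -1.52 (limma adjusted p = 0.0181). Without a block 0.0381% of all tested probes were called lower. The study itself reported *HES5*, *HEY1* and *NOTCH1*, all in this list, as lowered on these same arrays. The direction of these genes is not independent evidence either. *HES5* was tested because it was bright with DMSO and was well above background on 1 of 4 DAPT arrays, so its fitted change of -5.83 does not measure a level with DAPT. It was -5.12 when the 2 DAPT values below the dimmest signal well above background on their array were raised to that signal. The other 11 had limma adjusted p of 1.0, with changes from -0.40 to 0.15. Over all 13 the median change was -0.20, with 9 negative and 4 positive, beside -0.01 over all tested probes. *VIM* and *NES* also had a limma adjusted p of 1.0, but 6 of their 8 probes had positive changes, with a median of 0.03.

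Markers of other tissues were read beside the filaments. Forebrain markers were present and 0 of 7 were called, with a summed level of 6.81 to 7.48 with DMSO and 6.77 to 7.44 with DAPT. Mesenchyme and neural crest markers, of tissues that also express *VIM*, had summed levels of 7.06 to 7.28 and 6.90 to 7.39, and 0 of 10 were called. The summed blood markers ran from 2.11 to 8.14 with DMSO and from 2.62 to 7.95 with DAPT, high on slide 1 and low on slide 2 in both groups. Over both slides 5 of 5 tested genes had positive changes, and 0 were called. The globin genes *HBZ*, *HBE* and *HBBA* changed by -0.44, -0.44 and -0.46 on slide 1. On slide 2 they changed by 0.82, 1.63 and 1.49. *GATA1* and *TAL1* were positive on both slides, at 0.01 and 0.69 on slide 1 and 0.33 and 0.64 on slide 2. Surface ectoderm markers had 6.53 to 7.12 and 6.28 to 7.20, endothelial markers 5.19 to 5.96 and 5.16 to 5.49, and muscle markers, which split by slide like those of blood, 1.44 to 4.22 and 1.92 to 4.38, with 0 called in each list. Of 6 mid- and hindbrain markers 1 was tested (0.59 to 1.25 and 1.07 to 1.35), and *HOXA2* and *HOXB1* were not above background on any array. Of 5 markers of mature glia 2 were tested and 0 called, with summed levels of -0.89 to -0.13 and -0.37 to -0.16. In 5 of these 8 lists 1 gene had an unadjusted limma p under 0.05, and 0 in the other lists. The share of all tested probes under that unadjusted p was not computed, so nothing is read from these counts. The part of these tissues in the neurofilament values was not tested.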

How the data were processed

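Total RNA of 5 pooled prosencephalons per array was labelled with Cy3 and hybridized to chick 4x44k arrays following the one-colour protocol. The authors deposited the scanner output of 8 arrays (Agilent Feature Extraction 10.7.1.1), whose processed signals are intensity values after background correction, without normalization between arrays. They also deposited an expression report with gene symbols, mean raw intensity per group and their own fold changes, and a list of selected genes; fold change and normalized columns were not used. The array files hold no depth; the number of arrays limits the precision.

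Control spots and spots marked as non-uniform or population outliers were left out, saturated spots were kept, log2 signals were averaged over the spots of each probe, and arrays were centred on their 50th percentile, as in the methods. Symbols came from the report, and for 4557 probes from RefSeq accessions in the gene table of assembly GRCg7b; 17648 probes had neither and were counted under their identifier. DAPT and DMSO were compared with limma 3.58.1 in R 4.3.3 (lmFit and eBayes, two-sided, Benjamini-Hochberg over 31504 probes), without a block, since the methods name no paired test. Slide and array number as blocks, other normalizations, background corrections and filters, array weights and single arrays left out were alternatives. Exact permutation tests used the 70 labelled splits of the 8 arrays; where 1 array is missing the smallest p is also 0.0286. The scripts were tested on simulated data. Figures were drawn in Python 3.11.15 with matplotlib 3.10.9.

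Arrays with the same number in both groups deviated together (correlation across probes 0.505 to 0.767 after group means were removed, and 0.0489 on slide 1 and 0.356 on slide 2 once slide means were removed too), so blocked values are given where they change a call. The numbers stand in the names of the deposited array files. The paper describes separate sets of experiments, but does not say which arrays belong to one set. The highest correlation between arrays of a group was 0.992, and no array was a copy of another.

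Named are all probes of the 6 genes, every tested gene of the list of other intermediate filaments, genes of the other lists with an adjusted p under 0.05 without a block or with slide as a block, or where a sentence turns on them, and the 5 genes most correlated with the brightest *NEFM* and *VIM* probes. *TUBB3* (the lowest of its list) and *STMN2* (called with the array number as a block) were named after their values were seen. So were the early neuron genes near 0 and the single blood markers. The genes and lists were chosen with earlier results of these data known.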

Additional observations from a re-analysis of the deposited data

How the results depend on the processing

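Of the 17 filament probes, 4 were called higher without a block. The count was 8 with slide as a block, with the array number as a replicate block and with array weights, 0 with normexp background correction and with no filter on dim probes, 0 to 3 with each array left out, and 2 on slide 2 alone, chosen after seeing the data (6 on slide 1 alone). It was 3 or 4 under the other scalings, and 0 were called lower under these alternatives. For *NEFM* and for NEFL 1, 2, 3 and 5 the change stayed positive under all 17 alternatives, between 0.89 and 2.69. Near 0 the sign was not stable. Under normexp VIM 1, VIM 2, NES 1, NES 2 and NES 3 were at -0.68, -0.72, -0.62, -0.55 and -0.31. In the same fit VIM 3, VIM 4 and NES 4 were at -1.08, -0.56 and 0.14, and the median over all probes was -0.32. Its limma adjusted p was 0.144 for VIM 2 and VIM 3, as for each *NEFM* probe. Under array weights VIM 4 was at 0.27. With single arrays left out, the change ran from -0.016 to 0.47 for NEFL 4, -0.11 to 0.11 for VIM 1, -0.10 to 0.14 for VIM 2, -0.24 to 0.15 for VIM 4, -0.0042 to 0.16 for NES 1, -0.042 to 0.37 for NES 3 and -0.12 to 0.48 for NES 4, all at a limma adjusted p of 1.0.

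Other filament genes called higher numbered 1 instead of 0 with either block and with array weights. Early neuron genes called higher numbered 2, and 1 with the 75th percentile and with quantile normalization, and 0 with normexp and with no filter. They numbered 3 with array weights, 4 with slide as a block, 5 with the array number as a replicate block and 0 to 2 with single arrays left out. Progenitor genes called lower numbered 2, and 1 with no filter and 1 to 2 with single arrays left out. Over all probes 30 were higher and 12 lower, against 102 and 38 with slide as a block, 121 and 70 with the array number as a replicate block, 69 and 24 with array weights, 3 and 14 with normexp, 7 and 6 with no filter, and 5 to 20 and 6 to 15 with single arrays left out. The causes were not tested. The call of a probe near the threshold rests on 4 arrays per group, and *INA*, *GFAP* and 12 of the 27 other filament genes have no tested probe.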
